A study of Mus musculus with 18 samples.

Results

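A panel of 47 genes of the cell division cycle was followed in the frontal cortex of newborn control mice and mice mutant for 2 retinoid receptor genes. The panel was chosen by name, from what its genes do. It holds 29 genes of mitosis, 12 genes of DNA replication and 6 genes of the G1 phase (5 cyclin genes and the inhibitor gene Cdkn2c), of 54532 genes in the deposited table. All 47 were found by symbol, and all 47 passed the filter on low counts.

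A dividing cell prepares for DNA synthesis in G1, copies its genome in S phase and separates the copies in mitosis. Replication genes are transcribed mainly around the entry into S phase, through E2F factors. Mitosis genes are transcribed mainly in G2 and M, through the MuvB complex with B-MYB and FOXM1. The DREAM complex represses mitosis genes in resting cells. In the cortex the dividing cells include radial glia and intermediate progenitors, which give rise to neurons and, around birth, increasingly to glia.

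RNA was sequenced from 18 libraries of orbital, medial and dorsal frontal tissue at postnatal day 0. The 6 groups of 3 libraries are control and double mutant of Rxrg and Rarb (dKO) in each region. These genes encode the nuclear receptors RXR gamma and RAR beta, which act as dimers on DNA and change transcription when bound by retinoids. The labels name no altered exon, Cre driver, strain, litter or sex, do not describe the control genotype further, and do not say how many animals were used or whether tissue was pooled. Libraries that share a title prefix and a first index form a row, with 1 library of every region. The rows are put here in 3 sets (A, B, C) of a control and a dKO row. Set A has a title prefix of its own, whereas sets B and C share a prefix and were told apart by the consecutive numbers in the titles. No label states that a control row and a dKO row belong together, so differences within a set show the spread among libraries and not matched animals. Nothing states that the libraries came from separate animals, so the p-values speak for the spread among these libraries, which may be technical.

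Total counts ran from 52317649 to 93093398 per library in set A and from 28957325 to 39158792 in sets B and C. Levels are given as CPM, counts per 1e6 counted fragments. The cortical markers Neurod6 (848 to 1834 CPM) and Tbr1 (166 to 371 CPM) were present in every library. Rarb was at 1.19 to 4.85 CPM in dKO and 3.50 to 13.9 CPM in control libraries, and Rxrg at 0.377 to 2.90 and 1.64 to 30.5 CPM. Both pairs of ranges overlap, and the overlap lies mainly in set A, whose dKO libraries held 2.96 to 4.85 CPM of Rarb and 1.05 to 2.90 CPM of Rxrg. The set A controls held 3.50 to 7.39 CPM of Rarb and 1.64 to 2.35 CPM of Rxrg. The Rxrg counts of set A thus show no clear loss in dKO. The highest Rxrg values came from set B controls (6.11 to 30.5 CPM). Results are therefore also given with set A left out, a setting chosen after seeing the data. The dKO rows of sets A and C held 9.45 to 31.4 CPM of Xist against no more than 0.155 CPM in any other row, and Ddx3y showed the reverse, so these rows are female and all others male. The dKO row of set B is thus the one male dKO row. In bulk tissue, fewer cells of a type and less RNA per cell cannot be told apart.

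Replication genes were more abundant than mitosis genes in controls. Per kilobase of exon, the median of the mean control level was 8.18 CPM for the 12 replication genes, 2.46 CPM for the 29 mitosis genes and 3.27 CPM for the 6 G1 genes. Pcna, the sliding clamp of DNA polymerases, led the replication genes at 27.3 CPM per kilobase, and Cdc6, which loads the replicative helicase, was the lowest of them at 0.89. Pbk, a mitotic kinase, was the most abundant mitosis gene by this measure (9.43) and Cenpe, a kinetochore motor, the least (0.416). The cyclin gene Ccnd2 stood above every other member at 55.2 CPM per kilobase.

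Most mitosis genes passed the test in medial cortex of dKO mice, and among replication genes 1 did, though all of both classes lay higher. In the edgeR quasi-likelihood test with Benjamini-Hochberg adjustment over 18730 genes (threshold 0.05), 26 of the 47 members were higher in dKO and none was lower, where 1.18% of all genes were called higher and 0.897% lower. The 26 were 23 of the 29 mitosis genes, 1 of the 12 replication genes (Mcm7) and 2 of the 6 G1 genes (Ccnd2 and Cdkn2c). The median log2 fold change was 1.54 for mitosis genes, 0.51 for replication genes and 0.39 for G1 genes, against 0.00 for all genes tested. All 47 members had a fold change above 0, as did 49.6% of all genes. At an unadjusted p under 0.05, 28 mitosis genes, 7 replication genes and 2 G1 genes were higher, as were 1285 of the 18730 genes. DESeq2 called 28 mitosis genes, 4 replication genes (Tyms, Mcm7, Mcm5 and Rrm2) and 2 G1 genes higher, and 1118 of all genes in either direction.

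**Figure D1:**
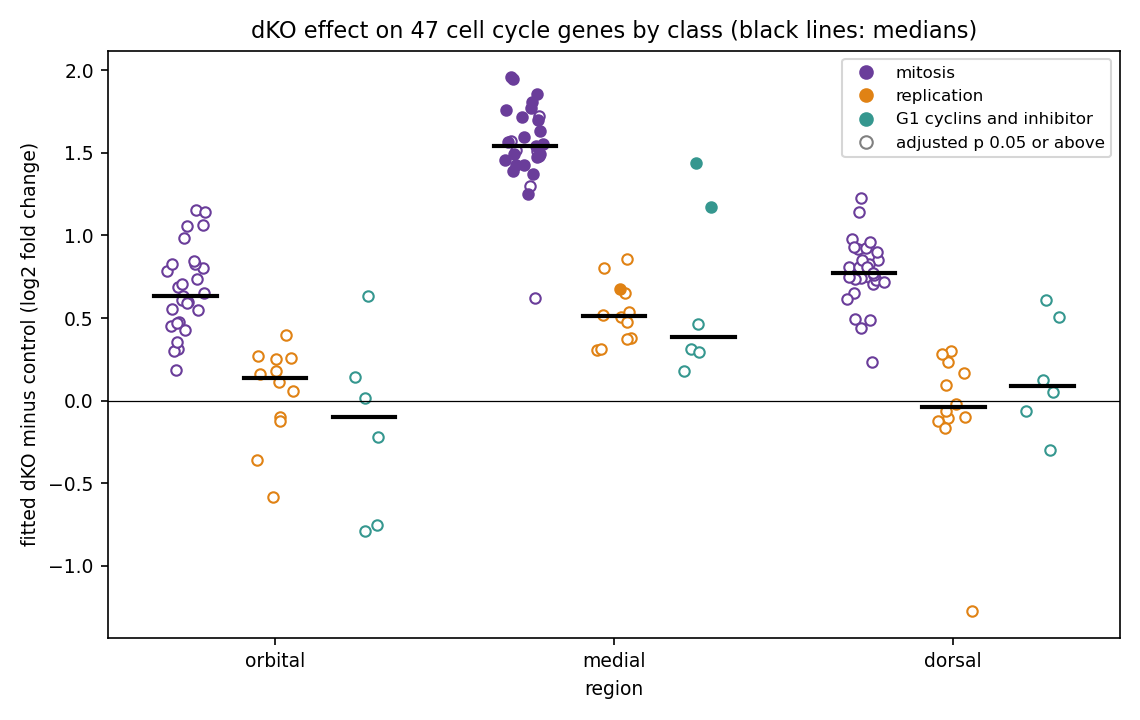
Fitted log2 fold change (dKO minus control) of each of the 47 genes in each region, coloured by class, with filled points past the adjusted p threshold of 0.05 and black lines at class medians. In medial cortex the mitosis genes have a median of 1.54 and the replication genes of 0.51, and all filled points (26) lie there.

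Cdk1, the kinase that drives entry into mitosis, had 13.4, 11.7 and 10.9 CPM in the medial control libraries of sets A, B and C and 36.9, 33.2 and 28.4 CPM in the dKO libraries. Its dKO libraries lay well above its controls in every set, and its log2 fold change was 1.37 (SE 0.18, edgeR adjusted p = 0.0026). The mitotic kinase gene Pbk had 17.8, 13.6 and 11 CPM in controls and 62.5, 40.0 and 44.0 CPM in dKO. The groups were again apart, with the highest dKO value in set A, for a log2 fold change of 1.70 (SE 0.23, adjusted p = 0.00279). Cdc20, which activates the anaphase-promoting complex, went from 19.6, 12.2 and 10.4 CPM to 49.6, 34.3 and 39.0 CPM (1.49, SE 0.20, adjusted p = 0.00279). Here set A was the highest in both genotypes, and the lowest dKO library exceeded the highest control. Nusap1, which binds spindle microtubules, had 8.24, 6.43 and 7.02 CPM in controls and 29.4, 16.9 and 21.5 CPM in dKO (1.54, SE 0.22, adjusted p = 0.00287). Its 3 controls were close together and its dKO libraries were spread more widely, with no overlap.

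The other called mitosis genes are given by what they are known for. Of the mitotic cyclin genes, Ccnb1 rose by 1.63 on the log2 scale, Ccnb2 by 1.49 and Ccna2 by 1.48. Of the kinases that build and time the spindle, Nek2 rose by 1.96, Aurka by 1.57 and Plk1 by 1.46. Aurkb and Birc5, partners in the chromosomal passenger complex, rose by 1.55 and 1.43. The spindle checkpoint genes Bub1 and Bub1b rose by 1.95 and 1.81. At the centromere and kinetochore, Cenpa, the centromeric histone H3, rose by 1.6, and the NDC80 complex genes Ndc80 and Spc25 rose by 1.72 and 1.47. The spindle motor gene Kif11 rose by 1.76 and Hmmr, of the spindle, by 1.86. Kif20a and Prc1, of the central spindle and cytokinesis, rose by 1.25 and 1.43, Ube2c, an enzyme of the anaphase-promoting complex pathway, by 1.39, and Mki67, a coat protein of mitotic chromosomes, by 1.77. The called mitosis genes had adjusted p of 0.0026 to 0.0386. Some of their exon bases are shared with other genes, and the counting ignored strand. The share was 33.2% in Kif20a (with Cdc23), 22.8% in Ube2c (Tnnc2), 12.5% in Ccna2 (Exosc9) and 11.1% in Prc1 (Rccd1). It was smaller in Plk1, Nek2, Nusap1 and Cdc20.

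The other 6 mitosis genes did not pass: Cenpe (log2 fold change 1.72, adjusted p = 0.0594), Top2a (1.57, 0.0689), Kif23 (1.52, 0.0554), Tpx2 (1.51, 0.0524), Ttk (1.30, 0.0563) and Cenpf (0.62, 0.341). Cenpf, a kinetochore protein, was the only mitosis gene whose dKO and control libraries overlapped, with 18.9, 9.88 and 9.78 CPM in controls and 25, 21.6 and 16.2 CPM in dKO. Its set A control was high, above the dKO library of set C. In 28 of the 29 mitosis genes, 5 of the 12 replication genes (Mcm2, Mcm7, Pcna, Rrm2 and Gins2) and 3 of the 6 G1 genes (Ccnd2, Ccne2 and Cdkn2c), every medial dKO library lay above every medial control, as it did in 11.7% of all genes tested.

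**Figure D2:**
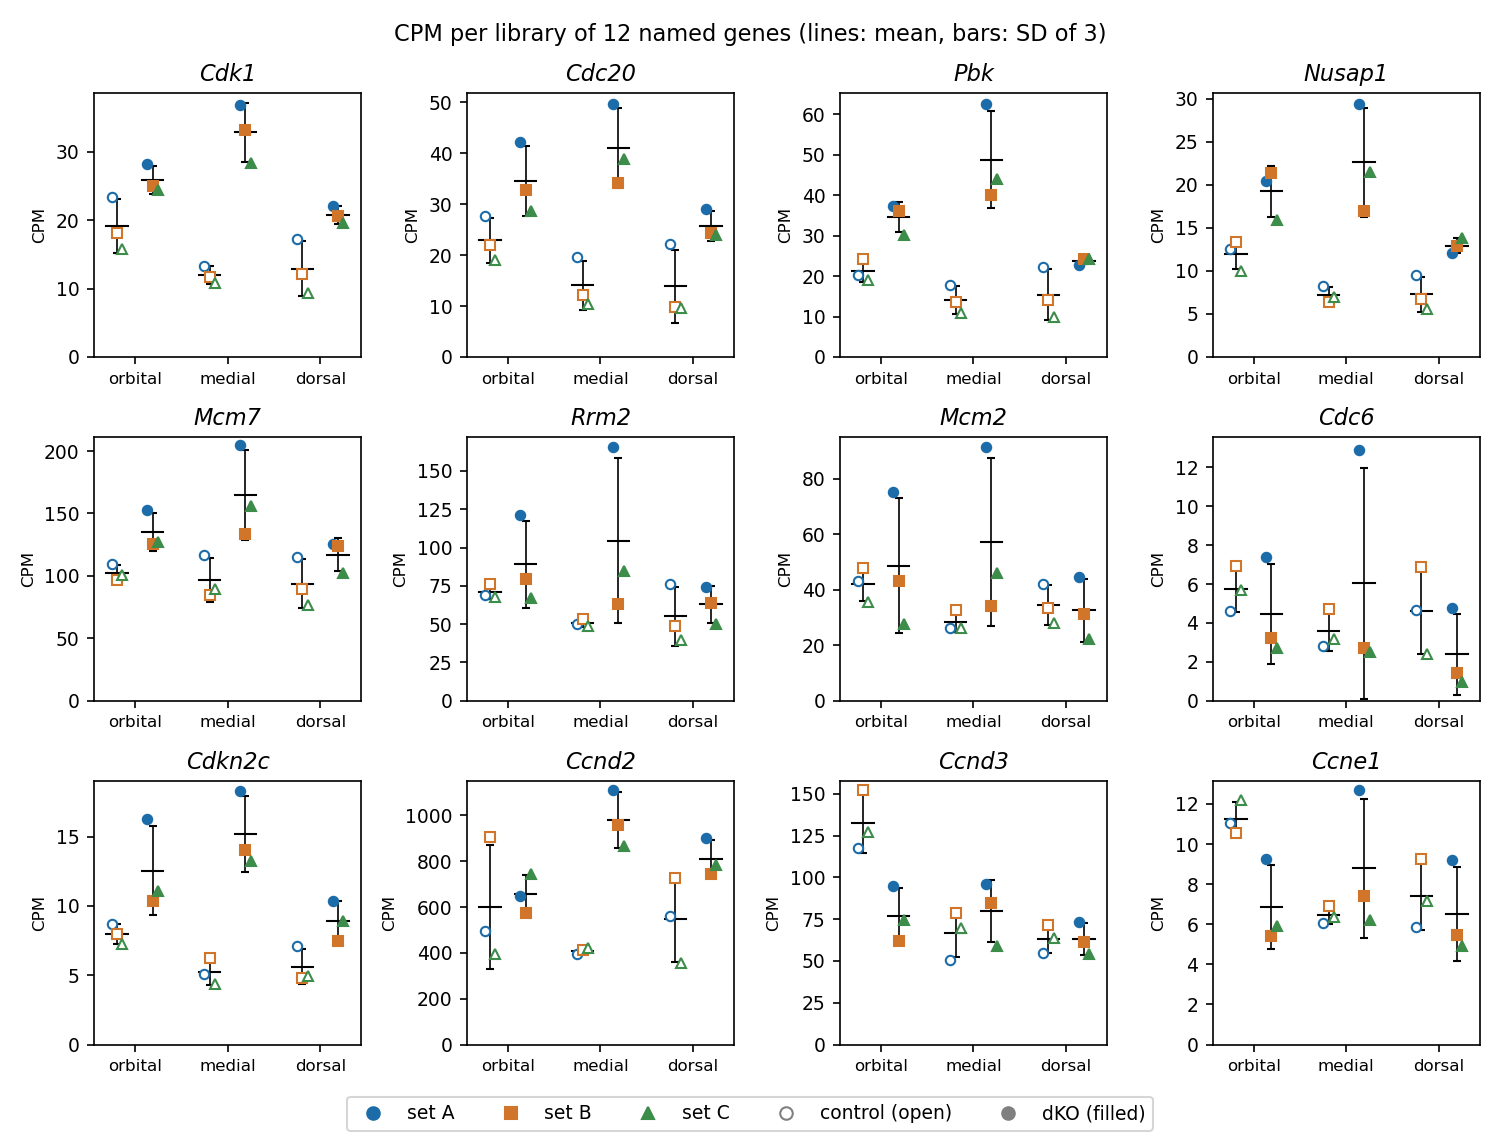
CPM of 12 members in each of the 18 libraries, by region, with open symbols for control and filled for dKO, symbol shape and colour for the set, and mean and SD of 3 libraries in black. Medial dKO libraries of Cdk1 (28.4 to 36.9 CPM) sit above the controls (10.9 to 13.4 CPM), while for Mcm2 the dKO library of set A (91.5 CPM) stands apart from the others.

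Among replication genes Mcm7, a subunit of the MCM helicase, was the single one to pass. It had 117, 84.6 and 89.3 CPM in medial controls of sets A, B and C and 204, 134 and 156 CPM in dKO (log2 fold change 0.68, SE 0.14, adjusted p = 0.0206). Its dKO libraries all exceeded its controls. Of its exon bases, 12.6% are shared with other genes (Ap4m1, Cops6 and 2 microRNA genes), and the counting ignored strand. Rrm2, a subunit of ribonucleotide reductase, had 50.04, 53.7 and 48.8 CPM in controls and 165, 63.4 and 84.7 CPM in dKO (0.86, SE 0.22, adjusted p = 0.0524). Its controls were close together, and the dKO library of set A was far above the other dKO libraries.

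The helicase subunit gene Mcm5 had 37.7, 36.0 and 29.9 CPM in controls and 88.7, 37.4 and 55.8 CPM in dKO (0.65, SE 0.21, adjusted p = 0.117), and its dKO library of set B lay within the controls. Mcm2 went from 26.3, 32.9 and 26.3 CPM to 91.5, 34.1 and 46.2 CPM (0.80, SE 0.26, adjusted p = 0.127). Set B hardly differed and set A differed most. The helicase loader gene Cdc6 had 2.80, 4.74 and 3.20 CPM in controls and 12.9, 2.74 and 2.49 CPM in dKO, high in the set A dKO library and below every control in the other dKO libraries. Its log2 fold change was 0.30 (adjusted p = 0.861). The remaining 7 replication genes had log2 fold changes of 0.32 (Mcm4) to 0.54 (Tyms). Gins2 counts are uncertain, since 67.3% of its exon bases are shared with Gse1.

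By set, the median difference between dKO and control medial libraries was 1.62, 1.18 and 1.90 on the log2 CPM scale (prior count 2) for mitosis genes in sets A, B and C, and 0.77, 0.09 and 0.64 for replication genes. All 29 mitosis genes were higher in dKO in each set. Of the 12 replication genes, 12, 7 and 11 were higher in sets A, B and C. Set B, whose dKO row is male, held a mitosis difference in all 29 genes and a median replication difference near 0. Against all 3 medial controls, which are male, its mean log2 CPM was 4.26 for mitosis genes (2.57 to 3.25 in controls) and 4.77 for replication genes (4.55 to 4.74). The part of sex in the results of sets A and C was not tested within them. The median over all genes was -0.02, 0.01 and 0.00.

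**Figure D3:**
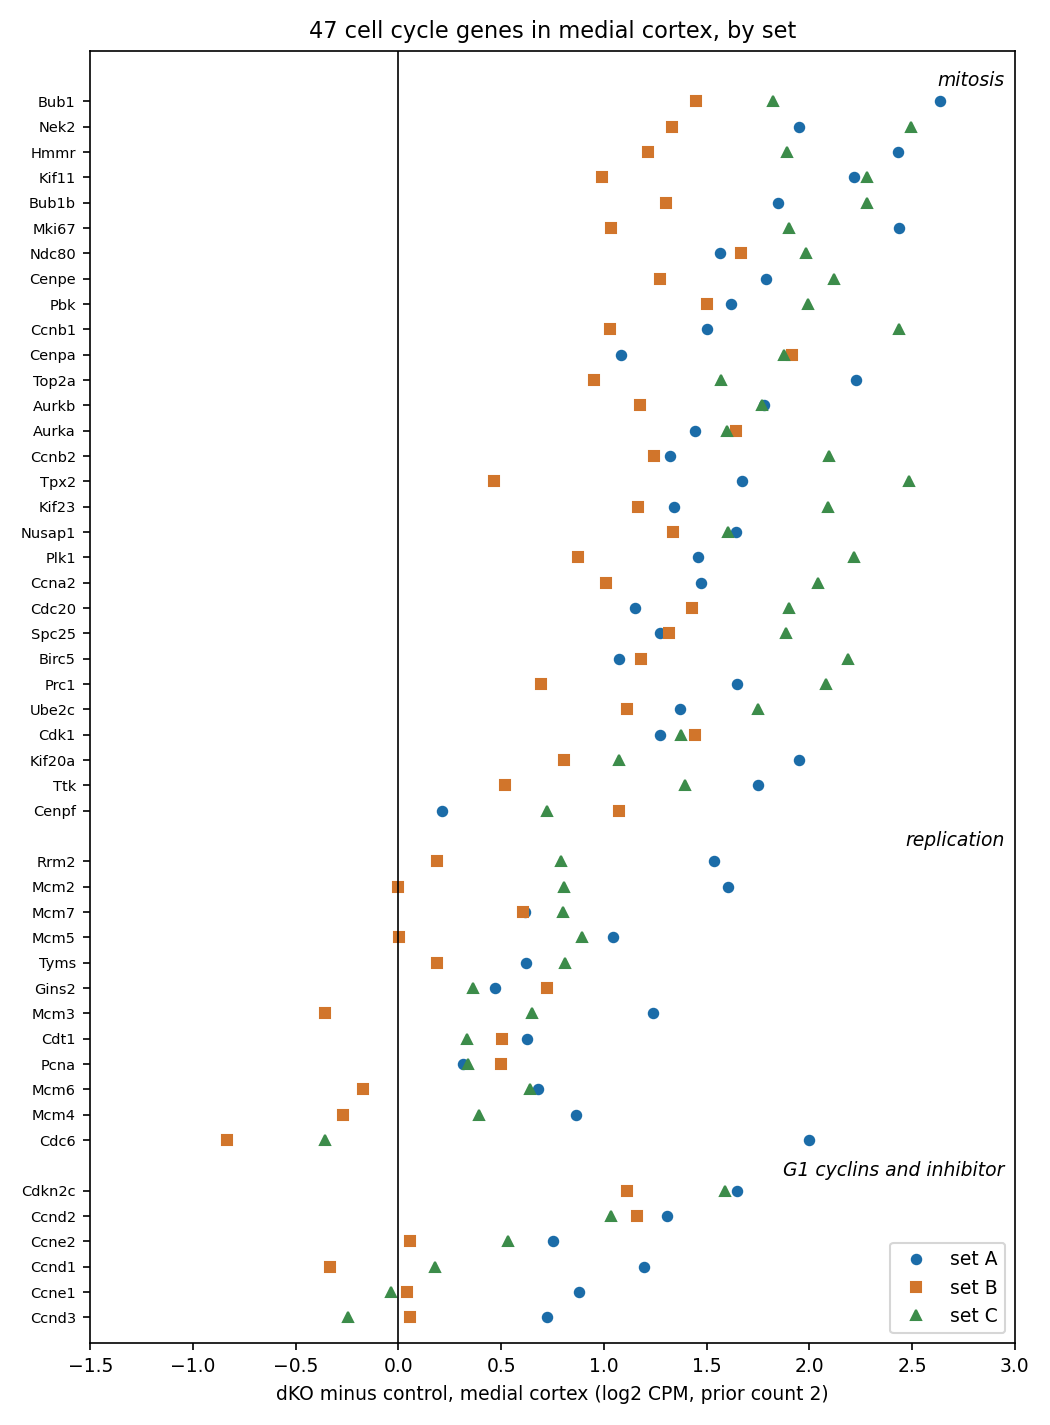
Difference in log2 CPM (prior count 2) between the dKO and control medial library of each set, for each of the 47 genes, ordered within class by the mean of the 3 sets. All 29 mitosis genes lie right of 0 in each set, whereas 5 of the 12 replication genes lie left of 0 in set B.

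The G1 genes split in medial cortex. Cdkn2c, which encodes the CDK4 and CDK6 inhibitor p18-INK4c, had 5.09, 6.23 and 4.35 CPM in controls and 18.3, 14.1 and 13.2 CPM in dKO (log2 fold change 1.44, SE 0.20, adjusted p = 0.00279). Its dKO libraries exceeded its highest control, as did those of Ccnd2, a D-type cyclin that activates the same kinases. Ccnd2 had 394, 414 and 422 CPM in controls and 1111, 960 and 866 CPM in dKO (1.17, SE 0.26, adjusted p = 0.0286). Its controls agreed closely. Of the E-type cyclin genes, which act at the entry into S phase, Ccne1 had 6.05, 6.92 and 6.36 CPM in controls and 12.7, 7.40 and 6.23 CPM in dKO, and Ccne2 had 10.6, 13.3 and 11 CPM in controls and 20.3, 14.4 and 16.1 CPM in dKO. Set A was high in dKO in both, and the groups overlapped in Ccne1 only. The log2 fold changes were 0.31 for Ccne1 and 0.46 for Ccne2 (adjusted p = 0.649 and 0.385), 0.29 for Ccnd1 and 0.18 for Ccnd3, and these 4 were called under none of the 13 alternative settings.

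The count of 26 depended on the libraries and on the estimate of the spread. Numbers in brackets are all genes called in either direction, 389 in the main fit. The count of members was 15 (362), 18 (122) and 12 (158) without the medial control of set A, B or C. It was 12 (67), 14 (107) and 13 (133) without the medial dKO library of set A, B or C. With the spread taken from the medial libraries alone it was 6 (31), and with a sex term 15 (156). With sets B and C alone it was 3 (19), namely Cdc20, Cenpa and Pbk. The median of the mitosis genes was then 1.57 and that of the replication genes 0.41. With DESeq2 34 members were higher (1118).

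Further genes of the same processes, taken from lists that leave out the 47 members, were tested in the same fit. Of 57 other mitosis genes, 28 were higher and none lower, with a median log2 fold change of 1.25. Examples are Cdca8 (1.25), a chromosomal passenger subunit, Dlgap5 (1.82), which stabilises kinetochore fibres, Cdca3 (1.61) and the CDK subunit gene Cks2 (1.35). Of 39 other replication genes, 4 were higher and none lower, with a median of 0.38: Tk1 (1.18), of thymidine salvage, Gmnn (1.24), the inhibitor of Cdt1, Chaf1a (0.81), of chromatin assembly, and Uhrf1 (1.72), of maintenance methylation. Of 20 E2F, RB and DREAM regulators 4 were higher: the pocket protein gene Rbl1 (1.33), Mybl2 (1.58), which encodes B-MYB, E2f8 (1.57) and Foxm1 (1.27). Of 13 tested CDK, CDK inhibitor and CDC25 genes 4 were higher, among them Cdc25c (1.98), Cdc25b (0.73) and Cdk2 (1.01), and of 10 p53 target genes none was higher or lower (1 at unadjusted p under 0.05).

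Markers of progenitors and other cells moved in the same libraries. Of 12 radial glia markers 3 were higher (Pax6 by 2.46, Vim by 0.82 and Gas1 by 1.40 on the log2 scale) and none lower, and their summed level was 603 to 724 CPM in medial controls and 1039 to 1520 CPM in dKO. Of 7 tested intermediate progenitor markers 2 were higher, and the 8 markers summed to 153 to 213 and 265 to 331 CPM. The defining marker Eomes was at 0.881, 0.144 and 0 CPM in controls and 26.1, 9.90 and 13.2 CPM in dKO, and Neurog1 was at 0 in 15 of the 18 libraries. Of 9 markers of ventral progenitors and interneurons none passed, with sums of 144 to 178 and 228 to 606 CPM. All 9 were higher at an unadjusted p under 0.05 in edgeR, beside 1285 of 18730 genes, with a median log2 fold change of 1.13. Of 7 astrocyte markers 2 were higher (163 to 363 and 479 to 675 CPM), of 12 microglia markers and 5 tested erythroid markers none (150 to 266 and 264 to 305 CPM, 802 to 1107 and 1490 to 3113 CPM). At the unadjusted threshold 5 of the microglia and 3 of the erythroid markers were higher. Of 12 cortical neuron markers 1, Syt1, was lower (8260 to 10041 and 6907 to 7669 CPM). None of 7 oligodendrocyte precursor, 10 endothelial and pericyte and 7 meningeal markers passed. The part of these cell types in the rise of the mitosis genes was not tested.

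Promoter sequence, which the choice of genes did not use, was searched for motifs of cell cycle regulators. RefSeq promoter windows of GRCm38.p6 (250 bases before to 50 after each start) were matched to 37 of the 47 members. Those without an entry were Aurkb, Ccna2, Ccnd1, Ccnd2, Ccne2, Gins2, Kif20a, Mcm4, Pbk and Tpx2. The CHR element TTTGAA, bound by the MuvB complex, was found on either strand in 18 of 24 mitosis genes (75.0%), 1 of 10 replication genes (Mcm2), 0 of 3 G1 genes and 17.9% of 32851 promoters. An E2F-like site (TTTCCCGC, TTTGGCGC, TTTCGCGC or TTTGCCGC, either strand, overlapping matches allowed) was found in 1 of the 24 mitosis genes (Cdk1), 6 of the 10 replication genes (Mcm3, Mcm5, Mcm6, Mcm7, Cdt1 and Cdc6), 0 of 3 G1 genes and 2.26% of all promoters. The CCAAT box CCAAT, bound by NF-Y, was in 21, 7 and 2 of them and in 37.4% of all. Matches describe letters in these windows and not bound sites.

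The 250 bases before the start are shown for 3 mitosis genes with a CHR and 3 replication genes with an E2F-like site, 5′ to 3′ on the gene's strand, with matches to the 3 motifs in capitals. They are Cdk1 (chr10:69352913-69353162, minus strand), Cdc20 (chr4:118437344-118437593, minus), Ccnb2 (chr9:70421555-70421804, minus), Mcm7 (chr5:138171884-138172133, minus, the one of its 2 windows that holds E2F-like sites), Mcm5 (chr8:75109259-75109508, plus) and Mcm6 (chr1:128359706-128359955, minus).
Cdk1: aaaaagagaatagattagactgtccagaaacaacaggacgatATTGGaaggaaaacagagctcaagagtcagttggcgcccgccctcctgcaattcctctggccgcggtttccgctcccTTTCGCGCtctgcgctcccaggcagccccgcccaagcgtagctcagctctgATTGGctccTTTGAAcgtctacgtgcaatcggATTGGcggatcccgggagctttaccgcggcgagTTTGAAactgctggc
Cdc20: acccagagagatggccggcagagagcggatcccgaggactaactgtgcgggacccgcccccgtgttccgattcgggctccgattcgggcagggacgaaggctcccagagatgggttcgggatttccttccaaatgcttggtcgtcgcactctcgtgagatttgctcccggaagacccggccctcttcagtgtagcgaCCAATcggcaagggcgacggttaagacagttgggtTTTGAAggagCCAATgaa
Ccnb2: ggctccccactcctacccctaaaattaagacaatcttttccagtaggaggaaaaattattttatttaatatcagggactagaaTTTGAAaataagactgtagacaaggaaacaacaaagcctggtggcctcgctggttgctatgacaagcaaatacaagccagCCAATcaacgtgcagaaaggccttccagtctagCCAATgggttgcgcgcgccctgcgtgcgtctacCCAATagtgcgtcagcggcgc
Mcm7: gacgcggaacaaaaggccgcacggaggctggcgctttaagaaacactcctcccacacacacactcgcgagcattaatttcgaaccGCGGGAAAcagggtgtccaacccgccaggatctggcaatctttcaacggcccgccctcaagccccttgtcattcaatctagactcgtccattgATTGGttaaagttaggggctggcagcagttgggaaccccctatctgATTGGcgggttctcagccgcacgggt
Mcm5: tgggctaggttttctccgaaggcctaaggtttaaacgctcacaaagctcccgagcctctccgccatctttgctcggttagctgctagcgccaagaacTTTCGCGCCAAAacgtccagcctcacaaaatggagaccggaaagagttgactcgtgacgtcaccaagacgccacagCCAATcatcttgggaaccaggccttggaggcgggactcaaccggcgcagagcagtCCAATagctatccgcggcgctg
Mcm6: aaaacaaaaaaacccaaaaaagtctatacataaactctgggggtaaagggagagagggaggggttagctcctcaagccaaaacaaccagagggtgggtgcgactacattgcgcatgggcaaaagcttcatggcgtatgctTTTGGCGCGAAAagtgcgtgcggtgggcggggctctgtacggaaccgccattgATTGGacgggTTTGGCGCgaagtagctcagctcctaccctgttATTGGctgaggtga
The CHR of Cdk1 lies 71 and again 15 bases before the start, that of Cdc20 18 bases, and that of Ccnb2 167 bases before it, with a further match after the start that the printed stretch leaves out. Of 23 CHR matches in mitosis genes, 11 lie after the start. The 23 count 1 site of Prc1 in each of its 2 overlapping windows, 5 and 30 bases before their starts. In Mcm6 the E2F-like matches 110 and 106 bases before the start overlap, as do those 153 and 149 bases before the start of Mcm5. Of the called genes, Birc5 and Nusap1 held none of the 3 motifs in their windows.

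In orbital cortex the mitosis genes lay higher in dKO without passing the test. The edgeR test called 0 of the 47 members there, where 0.0374% of all genes were called in either direction. At an unadjusted p under 0.05, 17 mitosis genes, 1 replication gene and 1 G1 gene were higher, against 5.96% of all genes. At this threshold 2 G1 genes were lower, as were 1489 of 18730 genes. DESeq2 called 3 mitosis genes (Bub1b, Nusap1 and Ndc80) and Cdkn2c higher, where it called 1.17% of all genes higher. It called Ccnd3 lower, and 430 of all genes in either direction. All 29 mitosis genes had a log2 fold change above 0, with a median of 0.64, and 8 of the 12 replication genes did, with a median of 0.14. Every dKO library lay above every control in 13 mitosis genes, 1 replication gene (Mcm7) and 1 G1 gene (Cdkn2c), and in 5.56% of all genes.

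Cdk1 in orbital tissue had 23.5, 18.1 and 15.7 CPM in controls and 28.3, 25 and 24.4 CPM in dKO, with a log2 fold change of 0.45 (adjusted p = 0.276). The dKO libraries lay just above the highest control, that of set A. Ndc80 had 5.50, 4.45 and 4.07 CPM in controls and 10.6, 8.96 and 9.25 CPM in dKO (1.05, adjusted p = 0.152), a clear separation in the 3 sets. Ccnd3 went the other way, with 118, 153 and 127 CPM in controls and 94.6, 62.0 and 74.5 CPM in dKO (-0.79, adjusted p = 0.148). All its dKO libraries lay below its controls.

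In dorsal cortex the mitosis genes lay higher in dKO in sets B and C and hardly differed in set A. The edgeR test called none of the members, 0 of 47, against 0.0214% of all genes. At an unadjusted p under 0.05, 20 mitosis genes, 0 replication genes and 1 G1 gene were higher, against 2.94%. At this threshold 1 replication gene, Cdc6, was lower, as were 720 of 18730 genes. DESeq2 called 6 mitosis genes higher (Nek2, Nusap1, Aurka, Cdc20, Cenpa and Cdk1), where it called 0.23% of all genes. The median log2 fold change was 0.77 for mitosis genes, all 29 above 0, and -0.04 for replication genes, 5 of 12 above 0. Every dKO library lay above every control in 11 mitosis genes, 0 replication genes and 2 G1 genes, and in 7.03% of all genes. Median differences within sets A, B and C were 0.02, 1.05 and 1.39 for the mitosis genes and -0.08, 0.11 and 0.01 for the replication genes. With sets B and C alone the fitted medians were 1.23 and 0.02 here and 0.69 and -0.15 in orbital tissue. In that setting 0 members were called in either region, with 5 of all genes called in dorsal and 7 in orbital tissue.

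Cdk1 in dorsal tissue had 17.2, 12.2 and 9.32 CPM in controls and 22.1, 20.6 and 19.6 CPM in dKO. The control of set A was the highest control and close to its dKO library, which left the dKO libraries just above all controls. Prc1, which bundles microtubules in the central spindle, had 24.5, 6.91 and 8.41 CPM in controls and 24.6, 25.8 and 24.1 CPM in dKO, alike in set A and far apart in sets B and C. Cdc6 had 4.64, 6.87 and 2.39 CPM in controls and 4.77, 1.43 and 0.942 CPM in dKO, lower in sets B and C and level in set A, with a log2 fold change of -1.27 (adjusted p = 0.676).

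Summed over the 3 regions of each row, 0 members passed in edgeR (20083 genes tested, 0.0249% called in either direction). At an unadjusted p under 0.05, 29 mitosis genes, 2 replication genes and 2 G1 genes were higher, against 3.94% of all genes, and the median log2 fold change was 0.98 for mitosis genes and 0.23 for replication genes. With sets B and C alone the medians were 1.11 and 0.034, and the replication median was 0.029 without the control row of set A and 0.032 without its dKO row. DESeq2 called 24 mitosis genes, 0 replication genes and Cdkn2c higher, where it called 1.04% of all genes higher.

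Replication and mitosis genes were then set beside each other in each library, as the mean log2 CPM of the 29 mitosis genes minus that of the 12 replication genes. In the 9 control libraries this value ran from -1.98 to -1.16, and in the 9 dKO libraries from -1.03 to -0.51, so that the groups did not overlap over the 3 regions. The highest control was the dorsal one of set A and the lowest dKO library was the dorsal one of the same set, 0.13 apart. Within sets A, B and C, the dKO value exceeded the control by 0.17, 0.70 and 1.06 in orbital tissue, by 0.66, 1.09 and 1.36 in medial tissue and by 0.13, 1.18 and 1.37 in dorsal tissue. Set A was the lowest in each region. Without regard to sets, the value was -1.44 ± 0.34 in controls and -0.79 ± 0.20 in dKO in orbital tissue (SD, n = 3), -1.69 ± 0.26 and -0.66 ± 0.16 in medial tissue, and -1.62 ± 0.41 and -0.72 ± 0.27 in dorsal tissue.

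The mean of the mitosis genes itself was higher in dKO in each set and region, by 0.60, 0.62 and 0.89 in orbital tissue, 1.63, 1.18 and 1.89 in medial tissue and 0.07, 1.07 and 1.38 in dorsal tissue. The mean of the replication genes differed by 0.43, -0.09 and -0.17 in orbital tissue, 0.97, 0.09 and 0.54 in medial tissue and -0.06, -0.11 and 0.01 in dorsal tissue. Without regard to sets, every dKO library exceeded every control in the mitosis mean in orbital and medial tissue, while in dorsal tissue the groups overlapped (3.79 to 3.98 in dKO, 2.41 to 3.87 in controls). The replication mean did so in medial tissue (4.77 to 5.71 and 4.55 to 4.74) and overlapped between the groups in orbital and dorsal tissue.

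**Figure D4:**
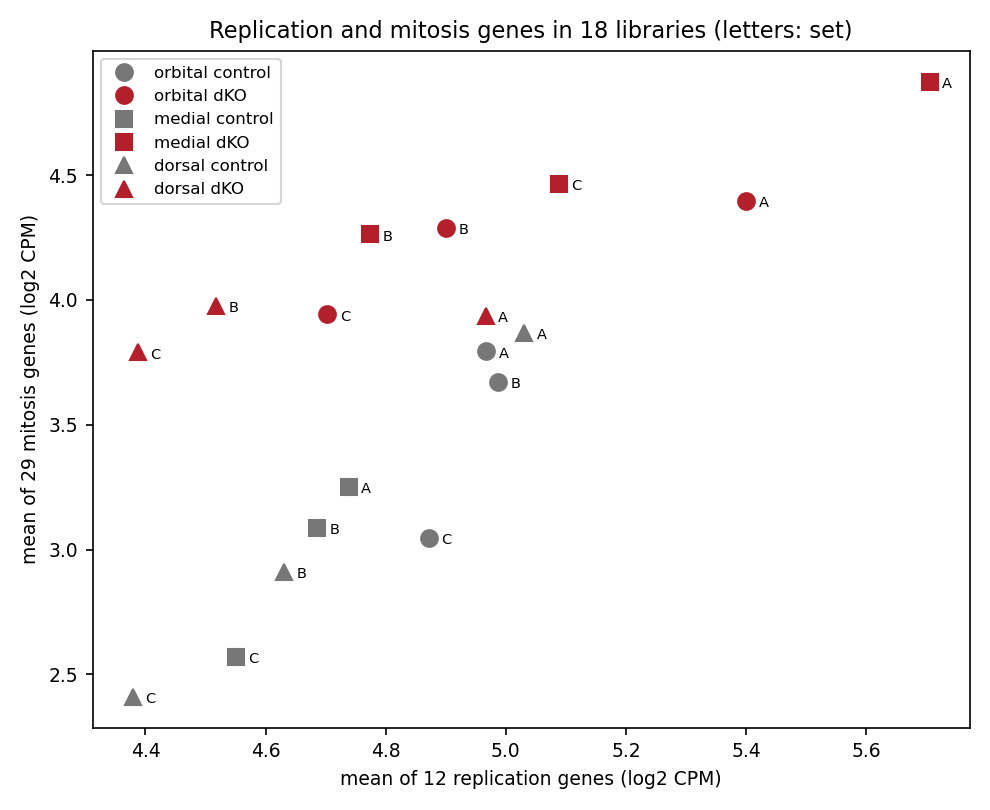
Mean log2 CPM of the 29 mitosis genes (vertical axis) against that of the 12 replication genes (horizontal axis) in each of the 18 libraries, with shape for region, colour for genotype and letter for set. At a like replication level the dKO libraries (red) lie above the controls (grey), with mitosis minus replication at -1.03 to -0.51 in dKO and -1.98 to -1.16 in controls.

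Regions differed within a genotype, tested with the row of libraries as a block. In controls, orbital tissue was higher than dorsal tissue in 8 mitosis genes and Ccnd3, where 6.39% of all genes were called higher. Cenpa had the lowest adjusted p of these mitosis genes, with 12.9, 13.0 and 14.0 CPM in orbital and 9.43, 6.04 and 5.23 CPM in dorsal controls (log2 difference 0.89, SE 0.19, adjusted p = 0.00862), with no overlap. The others were Ccnb2 (0.74), Plk1 (0.70), Cdc20 (0.70), Nusap1 (0.63), Birc5 (0.63), Spc25 (0.61) and Cdk1 (0.48). Ccnd3 had a difference of 0.96 (SE 0.13, adjusted p = 0.00156). Here and below, numbers in brackets after a count of members are all genes called in either direction. The count of 9 (2965) was 15 (2146), 2 (1430) and 1 (923) without the control row of set A, B or C. It was 4 (1857) and 5 (2561) without the dKO row of set A or C. With sets B and C alone it was 8 (992), and without the row block 1 (326).

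Medial controls were lower than orbital controls in 7 members: Ccnb2 (-1.07), Plk1 (-0.86), Cdc20 (-0.68), Cenpa (-0.64), Cdk1 (-0.58), Ccnd3 (-0.94) and Ccne1 (-0.74), where 4.54% of all genes were called lower. The count of 7 (1690) was 2 (599) without the dKO row of set A. It was 4 (607) and 4 (724) without the control row of set B or C. Without the row block it was 0 (19), and with sets B and C alone 0 (0). Between medial and dorsal controls no member passed the edgeR test, against 0.491% of all genes. At an unadjusted p under 0.05, 1 member was lower, beside 860 of 18730 genes higher and 893 lower. DESeq2 called 0 members and 356 genes. Markers of other cells also stood higher in orbital than in dorsal controls: 9 of 12 of microglia (339 to 411 and 183 to 204 CPM in sum), 5 of 5 tested of erythroid cells (1684 to 2130 and 575 to 1173 CPM) and 3 of 7 of meningeal fibroblasts (1769 to 2521 and 976 to 1181 CPM), and 7 of 12 of cortical neurons were lower. Of 12 radial glia markers 4 were higher in orbital than in dorsal controls (866 to 1062 and 586 to 678 CPM in sum), and 4 were lower in medial than in orbital controls. In medial against orbital controls 7 of the microglia, 2 of the erythroid and 4 of the meningeal markers were lower, and 4 of the cortical neuron markers higher. Their part in the difference of the mitosis genes was not tested.

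Among dKO libraries, medial tissue was higher than dorsal tissue in 5 mitosis genes (Pbk by 0.96, Cenpa by 0.94, Spc25 by 0.86, Birc5 by 0.74 and Cdk1 by 0.59 on the log2 scale) and 3 replication genes (Cdc6 by 1.2, Mcm5 by 0.80 and Tyms by 0.79), where 0.87% of all genes were called higher. In the same contrast 3 of 12 radial glia markers (1039 to 1520 CPM in medial and 657 to 724 CPM in dorsal dKO, summed), 1 of 7 tested intermediate progenitor markers (265 to 331 and 185 to 254 CPM) and 1 of 7 astrocyte markers (479 to 675 and 303 to 407 CPM) were higher, and 2 of 12 cortical neuron markers were lower (6907 to 7669 and 8135 to 8626 CPM). Their part in the result was not tested. The median difference was 0.68 for mitosis and 0.58 for replication genes. The count of 8 (392) was 16 (819) and 5 (409) without the control row of set A or B. It was 0 (29), 0 (53) and 0 (119) without the dKO row of set A, B or C. Without the row block it was 0 (65), and with sets B and C alone 0 (52). Orbital and dorsal dKO tissue differed in 0 members in edgeR, with 0.486% of all genes called. At an unadjusted p under 0.05, 12 members were higher in orbital tissue, beside 675 of 18730 genes higher and 684 lower. DESeq2 called 2 members and 318 genes. Medial and orbital dKO tissue differed in 0 members, with 0.016% of all genes called. At the unadjusted threshold 9 members were higher in medial tissue, beside 683 genes higher and 683 lower. DESeq2 called 0 members and 142 genes.

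Whether the dKO effect differed between regions was tested directly. The effect in medial minus that in orbital tissue was above 0 in 5 members: Ccnb2 (1.34, SE 0.25, adjusted p = 0.0278), Plk1 (1.17, SE 0.27, 0.0478), Cenpa (1.15, SE 0.26, 0.0478), Cdk1 (0.91, SE 0.19, 0.0328) and Ccnd3 (0.97, SE 0.19, 0.0302), where 0.683% of all genes were called in that direction. Ccnb2 had 16.6, 13.5 and 8.33 CPM in orbital controls and 17.8, 12.9 and 12.6 CPM in orbital dKO, but 7.48, 7.06 and 3.20 CPM in medial controls and 21.4, 17.4 and 13.9 CPM in medial dKO. Orbital groups overlapped and medial groups did not. For Ccnd3 the log2 fold change was 0.18 in medial and -0.79 in orbital tissue, neither past the threshold, so its difference lies mostly in lower orbital dKO values. All 47 members had a positive difference, as did 51.1% of all genes, with a median of 0.90 for mitosis genes, 0.44 for replication genes and 0.88 for G1 genes, and no replication gene passed. In this contrast 2 of 12 radial glia and 2 of 12 microglia markers were higher (12 of 12 positive in both lists) and 3 of 12 cortical neuron markers lower. In orbital controls and dKO the radial glia markers summed to 866 to 1062 and 689 to 1095 CPM, the microglia markers to 339 to 411 and 214 to 305 CPM, and the cortical neuron markers to 6833 to 8658 and 8231 to 8875 CPM. Their part in the result was not tested.

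The count of 5 (275 of all genes called in either direction) was 10 (1472), 0 (11) and 0 (3) without the control row of set A, B or C. It was 0 (0), 0 (0) and 2 (421) without the dKO row of set A, B or C. Without the row block and with sets B and C alone it was 0 (0). Between medial and dorsal tissue the edgeR test called 0 members and 0% of all genes. At an unadjusted p under 0.05, 30 members were higher, beside 541 of 18730 genes higher and 428 lower. DESeq2 called 2 members and 61 genes. Between orbital and dorsal tissue edgeR called 0 members and 0% of all genes. At the unadjusted threshold 2 members were lower, beside 1295 genes higher and 1068 lower. DESeq2 called 1 member and 313 genes.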

How the data were processed

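The values used are the deposited raw counts, fragments assigned to each gene, not normalized. Per the file headers, fragments were counted by featureCounts 1.6.2 without strand on Ensembl 94 genes of GRCm38, and per the submitters' processing notes reads were aligned with STAR 2.6. Of its per-sample columns 18 matched the samples, and 6 were not read. Symbols came from GENCODE M21 for 54409 genes.

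Counts were tested in R 4.3.3 with edgeR 4.0.16 (TMM, quasi-likelihood F tests, filterByExpr at min.count 10 and min.total.count 15, Benjamini-Hochberg adjustment over all genes tested). The dKO effect used the 18 libraries in a model with a mean per group and a title prefix term, in which the 3 libraries of a row count as independent. Counts summed per row used genotype and title prefix. Region differences used the row as a block. CPM are raw counts over the library's total, and values within sets use log2 CPM with a prior count of 2. Alternatives were DESeq2 1.42.0, other size factors, no filter, the set as block, a sex term, the spread of 1 region, leaving out libraries or rows, and sets B and C alone. The fits were also run on simulated counts. These were drawn independently for each library, with no row, title prefix or sex effect, so they do not test how the fits handle such effects. Pseudogenes named after Ccnb1, Ccnb2, Ccnd3, Pcna and Tyms are annotated, so their counts may be shared.

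The members, lists and motifs were chosen with earlier results of these data known. Values in every library are given for the 4 members of each class with the lowest p in medial dKO and for members a sentence turns on, chosen after their values were seen. Of other lists up to 4 genes with the lowest p are named. Figures were drawn with matplotlib 3.10.9.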

Additional observations from a re-analysis of the deposited data

Results flagged for a closer look

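In 5 members the dKO effect differed between medial and orbital tissue by the test of the difference itself (medial minus orbital, log2 scale, edgeR, adjusted p of 0.0278 to 0.0478). The difference was 1.15 for Cenpa, 1.17 for Plk1, 0.91 for Cdk1, 1.34 for Ccnb2 and 0.97 for Ccnd3, whose own fold change was -0.79 in orbital and 0.18 in medial tissue. In controls the same 5 genes were lower in medial than in orbital tissue, by -0.64, -0.86, -0.58, -1.07 and -0.94, and both contrasts use the same control libraries. None of the 5 passed without the row block or with sets B and C alone, where 0 of all genes did.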

How the results depend on the processing

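The direction of the 12 members named first in medial cortex was the same under all 13 alternatives, but they were chosen for low p in these libraries. Of all 47 members, 45 lay higher in dKO without the medial control of set A. Without the medial dKO library of set A 46 did, and with sets B and C alone 44 did. In the other alternatives all 47 lay higher. Of the counts of members, several moved by more than 1.5 times. With DESeq2 4 members were higher in orbital, 6 in dorsal and 25 in summed dKO. In what follows, numbers in brackets are all genes called in either direction, out of 18730 for DESeq2. In region contrasts DESeq2 called 20 members for medial minus dorsal in dKO (1299) and 14 for orbital minus dorsal in controls (4128). It called 2 for orbital minus dorsal in dKO (318) and 11 for medial minus orbital in controls (2921). For the difference of the dKO effect it called 2 for medial minus dorsal (61), 1 for orbital minus dorsal (313) and 18 for medial minus orbital (1700). With no filter the counts were 4 in summed dKO (65), 14 for medial minus dorsal (1169) and 1 for medial minus orbital in dKO (197). For the effect differences they were 1 for orbital minus dorsal (578) and 15 for medial minus orbital (1600). RLE size factors gave 3 for the last (244). In medial dKO the count was 15 with a sex term (156), 6 with the spread of medial libraries alone (31) and 3 with sets B and C alone (19). With no row as replicate block the counts were 0 for medial minus dorsal in dKO (65), 1 for orbital minus dorsal (326) and 0 for medial minus orbital in controls (19). For the effect difference medial minus orbital the count was 0 (0). With sets B and C alone these 4 counts were 0 (52), 8 (992), 0 (0) and 0 (0). Leaving out 1 library gave 12 to 18 in medial dKO (67 to 362). Leaving out 1 row gave 0 to 16 for medial minus dorsal in dKO (29 to 819). In controls it gave 1 to 15 for orbital minus dorsal (923 to 2561) and 2 to 6 for medial minus orbital (599 to 1407). For the effect difference medial minus orbital it gave 0 to 10 (0 to 1472). Fewer samples enter the fits that leave out a library, row or set. Otherwise the cause was not tested.

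Same-set deviations of control and dKO libraries correlated at 0.23, 0.03 and 0.28 in orbital tissue, 0.17, -0.07 and 0.06 in medial tissue and 0.32, 0.03 and 0.20 in dorsal tissue, so the sets were not treated as pairs. With the set as a replicate block 32 members were higher in medial dKO, where 662 of all genes were called in either direction (389 in the main fit). In orbital, dorsal and summed dKO 0 members were higher, with 14, 6 and 6 of all genes called. The gap between mitosis and replication genes moved by less than 1 SD between sets under its alternatives. Leaving out 1 set cannot move the mean gap by 1 SD, whatever the values. Leaving out the filter keeps the same members, since all of them passed it. These alternatives therefore do not test whether the gap is stable. Depth limits the lowest members, Cdc6 at 0.942 CPM in 1 library.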
